A study of Saccharomyces cerevisiae with 2 samples.

Results

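The PIR genes of Saccharomyces cerevisiae encode cell wall proteins with internal repeats. The 4 genes described here were chosen by open reading frame name: PIR1 (YKL164C), HSP150 (YJL159W, also called PIR2), PIR3 (YKL163W) and CIS3 (YJL158C, also called PIR4). They are 4 of the 6207 genes on the array, and all 4 had a ratio on both arrays of the series, as did 2254 genes in all (36.3%). The related gene PIR5 (YJL160C) is shown beside them as a relative outside the chosen set.

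The series compared zymolyase-treated with untreated cells of a yeast mutant labelled msn2/4; Msn2 and Msn4 are transcription factors of the general stress response. The treated part of a culture in rich medium at 24 °C received zymolyase 100T, a mixture of enzymes that breaks down wall glucan, at 5 units per ml; the untreated part grew on without it. Cells were harvested from either part at 3 hours. Both parts carried the same mutation, and a strain with intact Msn2 and Msn4 is not analysed here. Array 1 carried zymolyase RNA in Cy3 and untreated RNA in Cy5, and array 2 zymolyase RNA in Cy5 and untreated RNA in Cy3. The series' design names 1 culture for this mutant, although the sample descriptions mention more, and the design was taken as correct. On that basis the arrays are 1 replicate, the conditions could not be tested against each other, and every SD is over 2 hybridisations and covers hybridisation and dye error only.

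PIR proteins leave the cell through the secretory pathway, where they are O-mannosylated and cut by the Kex2 protease. In the wall they are attached directly to the glucan network, without a lipid anchor, through alkali-sensitive bonds made by their repeats. Their genes are known targets of the cell wall integrity pathway, in which surface sensors act through protein kinase C on the MAP kinase Slt2 and the transcription factor Rlm1, and their transcripts are also known to peak around the exit from mitosis.

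The deposited values are log2 ratios of the 2 channels of an array, and the sources used here do not give their numerator. The sign of array 2 was turned before averaging. That turn was chosen with these data in view, partly because cell wall genes, the PIR genes among them, had opposite signs in the deposited columns. Positive ratios are called likely zymolyase over untreated because published work reports that zymolyase raises cell wall genes. The shared direction of the PIR genes on the 2 arrays, and its reading as higher after zymolyase, is thus an assumption and not a finding. As deposited, each of the 4 genes was positive on array 1 and negative on array 2, a pattern that 177 of 2254 genes (7.85%) had.

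PIR3 had the largest ratio of the family. Its log2 ratio was 3.73 on array 1 and 2.70 on array 2 after the turn (deposited as -2.70), a mean of 3.21 ± 0.73 (SD of 2 hybridisations), which corresponds to a 9.27-fold difference between the conditions. By the mean it was number 6 of the 2254 genes, and it was number 8 on array 1 and number 12 on array 2 among the same genes. PIR3 was the highest of the PIR genes on each array.

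HSP150, a secreted wall glycoprotein whose gene is also known to respond to heat, had 1.70 on array 1 and 2.13 on array 2 after the turn (deposited as -2.13). The mean was 1.92 ± 0.30 (3.78-fold), at position 28. CIS3, the PIR protein encoded next to it, had 1.68 on array 1 and 2.03 on array 2 after the turn (deposited as -2.03), with a mean of 1.85 ± 0.25 (3.62-fold), at position 29. For both genes the ratio on array 2 was somewhat larger in size than that on array 1.

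PIR1 had the smallest mean of the 4. Its ratio was 1.93 on array 1 and 1.02 on array 2 after the turn (deposited as -1.02), with a mean of 1.48 ± 0.65 (2.78-fold), at position 46. It stood at position 62 on array 1 and at position 188 on array 2, where it was just past 2-fold.

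PIR5 lay apart on array 2. Its ratio of 2.87 on array 1 was above those of PIR1, HSP150 and CIS3, whereas on array 2 it was 0.46 after the turn (deposited as -0.46), the lowest of the 5. The mean of 1.66 ± 1.70 had an SD larger than itself. The plot of ratios by gene shows the arrays close together for HSP150 and CIS3 and far apart for PIR5.

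**Figure D1:**
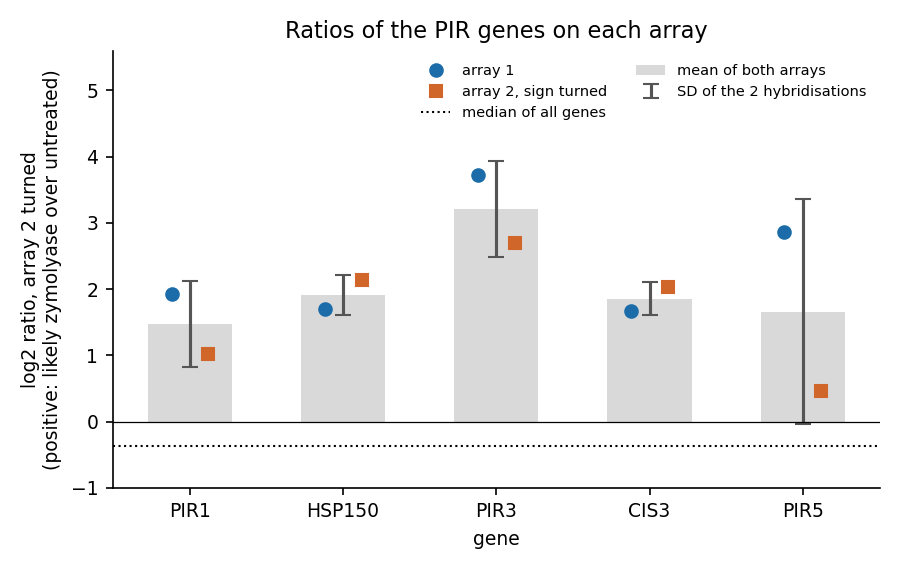
Log2 ratios of the 4 PIR genes and PIR5 on array 1 (circles) and array 2 with its sign turned (squares); bars give the mean, error bars the SD of the 2 hybridisations, and the dotted line the median of all genes at -0.37. PIR3 is highest at 3.21, and the arrays differ most for PIR5 (2.87 and 0.46).

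Genes were called positive or negative from a mean ratio of 2-fold or more (1 as a log2 value) with signs that matched between the arrays after the turn. All 4 PIR genes were positive by that rule. Over all genes 65 of 2254 were positive (2.88%) and 307 were negative (13.6%). After each array was centred on its median, these were 122 and 161 genes. The 4 PIR genes also passed 2-fold on each array separately, which 38 genes did in the positive direction (1.69%). The turn bears on these shares as well. Opposite deposited signs, either way round, with at least 2-fold on each array were found for 142 genes (6.30%), again with all 4 PIR genes. That count needs no numerator, but counting opposite signs is the same choice as the turn. Another 223 genes (9.89%) were at least 2-fold on each array with deposited signs alike. No PIR gene was among them, which their opposite deposited signs, known when the turn was chosen, had fixed.

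The median ratio of the 4 PIR genes was 1.89, against -0.37 over all genes (quartiles -0.84 and -0.02). It was 1.82 on array 1 and 2.08 on array 2. Relative to the median of all genes, PIR3 stood at 3.58, HSP150 at 2.29, CIS3 at 2.22 and PIR1 at 1.84. Including the 4 PIR genes, 32 genes had ratios at least as high as the lowest PIR gene on each array (1.68 on array 1, 1.02 on array 2). In the scatter of both arrays the PIR genes lie in the sparsely filled upper right, away from the main cloud, which runs from upper left to lower right (Pearson's r = -0.19 and Spearman's rho = -0.31 across 2254 genes after the turn, which are not independent replicates).

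**Figure D2:**
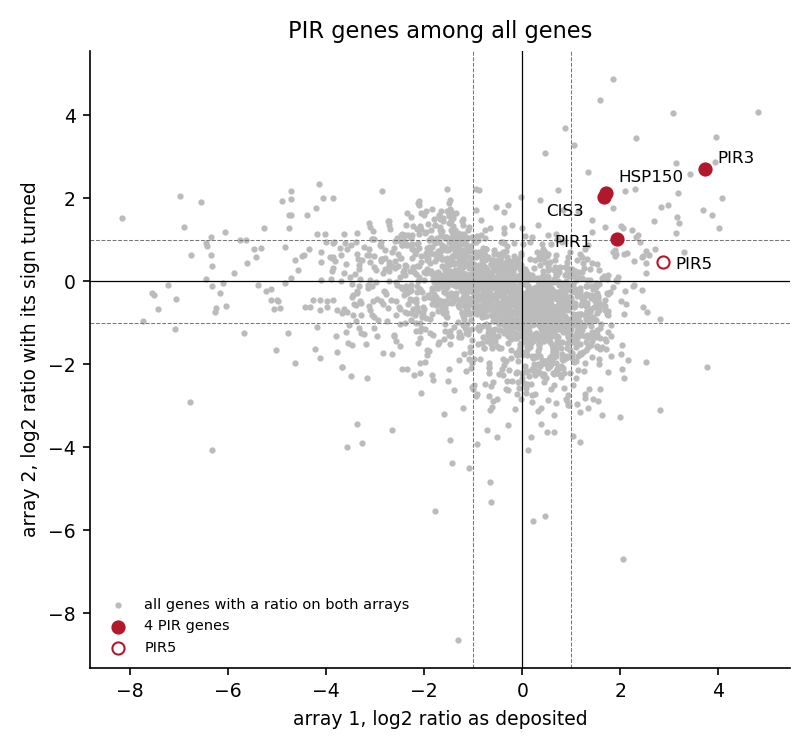
Log2 ratio on array 1 as deposited (horizontal) and on array 2 with its sign turned (vertical) for all 2254 genes with both (grey), the 4 PIR genes (filled) and PIR5 (open); dashed lines mark 2-fold. The 4 PIR genes are past 2-fold on both axes, and PIR5 is past it on array 1 only.

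The order of the PIR genes by mean was PIR3, HSP150, CIS3 and PIR1. HSP150 and CIS3 were too close to be put in an order. HSP150 minus CIS3 was 0.03 on array 1 and 0.10 on array 2. Its mean of 0.06 ± 0.05 was hardly larger than its SD over 2 hybridisations. CIS3 minus PIR1 was -0.26 on array 1 and 1.01 on array 2, so these neighbours in the order changed places between the arrays. PIR3 minus HSP150 was 2.02 on array 1 and 0.57 on array 2, positive on both but with an SD of 1.03 around its mean of 1.29. The difference between PIR3 and PIR1 was the steadiest of those involving PIR3, at 1.79 on array 1 and 1.68 on array 2 (mean 1.74 ± 0.08). The ratio of PIR3 was thus 3.46 times that of PIR1 on array 1 and 3.20 times on array 2. The genes share sequence in their repeats, and probes may bind the transcripts of relatives; the part of such binding in the values was not tested.

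With array 2 turned, HSP150 and CIS3 differed little between the hybridisations, and PIR1 and PIR3 differed more. PIR3 had 3.73 on array 1 and 2.70 on array 2, and PIR1 had 1.93 and 1.02. The SDs of CIS3 (0.25) and HSP150 (0.30) were smaller than those of all but 11.8% and 14.1% of the genes, and those of PIR1 and PIR3 were also below the median SD of all genes, 0.99 (quartiles 0.50 and 1.63). The SD of PIR5 was larger than that of 77.4% of the genes. These SDs hold only with the turn: from the deposited signs they were 2.09 for PIR1, 2.71 for HSP150, 4.54 for PIR3 and 2.62 for CIS3, against a median of 0.70 over all genes. The half-difference of the arrays (array 1 minus turned array 2, divided by 2), in which a dye effect common to both arrays remains, lay between -0.21 and 0.51 for the 4 PIR genes. Across 2174 genes the half-difference followed gene length in the RefSeq table of assembly R64 (Spearman's rho = 0.46, as a description). Genes as long as the PIR genes, from 684 to 1242 bases, had a median half-difference of -0.24 (quartiles -0.88 and 0.37), and 31 of these 745 genes (4.16%) were positive by the 2-fold rule. The mean ratio of those 745 genes, which include the 4 PIR genes, had quartiles of -0.73 and -0.03. The part of gene length in the PIR ratios was not tested.

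The PIR genes lie in 2 groups on the chromosomes. By the order of loci in the R64 table and the strand letters of the names, PIR1 and PIR3 are direct neighbours on chromosome XI and are transcribed away from each other. On chromosome X, PIR5, HSP150 and CIS3 follow each other directly, PIR5 and HSP150 transcribed away from each other and HSP150 and CIS3 towards each other. HSP150 and PIR5, which share an upstream region in that arrangement, differed by -1.16 on array 1 and 1.68 on array 2 (HSP150 minus PIR5).

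Of the 12 loci within 3 places of a PIR gene, 7 had a ratio on both arrays. By the 2-fold rule 1 was positive and 2 were negative, beside 2.88% and 13.6% of all genes. So few loci cannot be told from that background. The positive one was KDX1, a pseudokinase paralog of Slt2 and itself a known Rlm1 target. It had 3.96 on array 1 and 3.48 on array 2 after the turn (mean 3.72 ± 0.34) and is separated from PIR3 by YKL162C, which had no ratio on either array. On the other side of PIR1, beyond a tRNA gene without a spot, MCD4, a gene of GPI anchor synthesis, was negative at -1.22 ± 0.70. ELF1, beyond KDX1, had opposite signs on the arrays with a mean of -1.03, and TPK3, beyond MCD4, had no ratio.

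On chromosome X, FAR1, the cell cycle inhibitor gene next to CIS3, had 0.87 on array 1 and -1.01 on array 2 after the turn. SSY5, a protease of amino acid sensing, was negative at -1.86 ± 1.80. FBP26 had opposite signs on the arrays, with a mean of -0.80, and JJJ2 had -0.56 ± 0.12. FMP33, next to PIR5, had no ratio. None of these 4 measured loci was positive, which at 2.88% of all genes says little of so few.

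**Figure D3:**
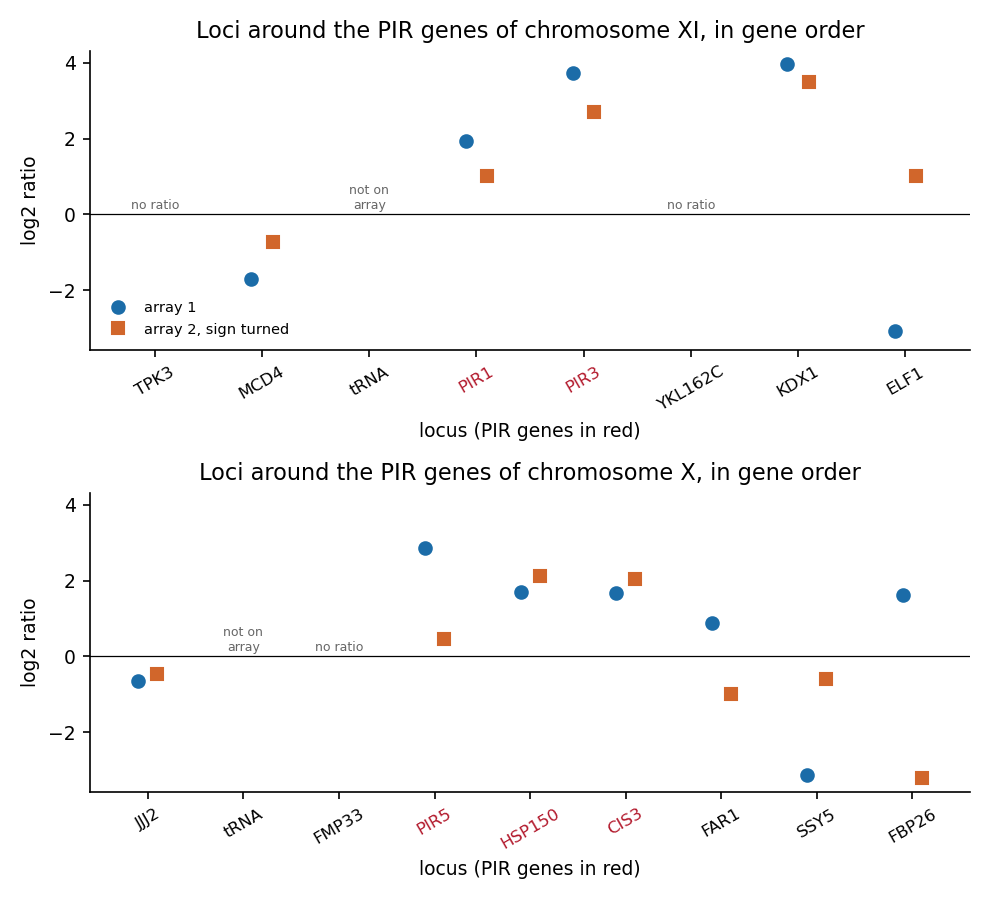
Log2 ratios on array 1 (circles) and array 2 with its sign turned (squares) for the PIR genes (red names) and the loci within 3 places of them on chromosomes XI and X, in gene order and not to distance. Besides the 4 PIR genes, KDX1 is the 1 locus shown that is past 2-fold in the positive direction on both arrays (3.96 and 3.48). PIR5, also in red, is past it on array 1 only.

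Most other genes under Rlm1 were positive as well. A list of 21 other genes known to depend on Rlm1 had 15 with a ratio on both arrays. Of these, 13 were positive, where 2.88% of all genes were, none was negative and 2 passed in neither direction. The turn was chosen partly on cell wall genes. This list and the GPI and glucan lists below hold such genes, and the signalling and M to G1 lists share positive members with them. The direction of all these lists is thus not independent of the turn. The Rlm1 list had a median of 2.41 (2.30 on array 1, 2.00 on array 2), and the PIR median of 1.89 lay inside its range of 0.50 to 3.72. KDX1, above, had the largest mean. CRG1 and NFG1 followed at 3.41 ± 0.74 and 3.36 ± 2.15, and SLT2, the MAP kinase gene, had 3.04 ± 1.47. The wall protein genes SED1 and NCW2 had 2.99 ± 0.19 and 2.98 ± 1.98. The 2 members that passed in neither direction were GSR1 at 0.50 ± 0.29 and FLC2 at 1.08 ± 1.67, with opposite signs on the arrays; they were named after their values were seen.

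Signalling genes upstream of the PIR genes were poorly covered. Of 20 genes of the cell wall integrity pathway, 6 had a ratio on both arrays, and RLM1 had none on either. KDX1, SLT2 and the surface sensor gene MID2 (1.10 ± 0.34) were positive and no member was negative, beside 2.88% and 13.6% of all genes. The list median was 0.91. That median was 0.38 on array 2 alone, over every member valued there, and 1.52 with the arrays centred and rescaled to a common spread. KDX1 and SLT2 are also on the Rlm1 list. MSN2 and MSN4 had no ratio on either array, and a ratio between 2 parts of the same mutant could not have checked the genotype.

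GPI-anchored proteins are the other main class of covalently bound wall proteins. Of 11 measured genes 4 were positive and none was negative, beside 2.88% and 13.6% of all genes. The list median was 0.58, against 1.89 for the PIR genes. With the arrays centred and rescaled, 8 were positive and the median was 1.20, against 2.86 for the PIR genes; with centring alone it was 0.97, and on array 2 alone 0.92. The 4 positive ones, SED1, NCW2, CWP1 (2.89 ± 0.81) and PST1 (2.41 ± 0.81), are all on the Rlm1 list as well. Without centring the other 7 lay between -0.86 and 0.66. The difference between the 2 classes was not tested.

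Glucan, to which PIR proteins are bound, is made by synthases and reshaped by wall enzymes. Of 8 measured genes on a list of both, 3 were positive and none was negative, beside 2.88% and 13.6% of all genes. The positive ones were CRH1, EXG1 and BGL2. CRH1, a chitin-glucan transglycosylase gene, had 2.35 ± 1.14. The exoglucanase gene EXG1 had 1.51 ± 1.32 and the glucan transferase gene BGL2 had 1.25 ± 0.92. CRH1 and BGL2 are also on the Rlm1 list. Genes of enzymes that cut or transfer glucan were also among those not called. GSC2, a glucan synthase subunit gene named after its values were seen, had 1.53 on array 1 and -1.56 on array 2 after the turn. The count was 6 on array 1 alone, 1 on array 2 alone and 1 with 2-fold required on each array. The list median of 0.81 was 1.71 on array 1 but -0.22 on array 2, over the 8 genes.

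Genes that process PIR proteins were near the background of all genes on the mean of the arrays, but the arrays differed. Of 9 measured genes for Kex2 and for mannosyltransferases, none was positive and 2 were negative (1 after centring), where 2.88% and 13.6% of all genes were. KEX2 had -0.06 on array 1 and -2.56 on array 2 after the turn (mean -1.31 ± 1.77). PMT3, a protein O-mannosyltransferase gene, had -1.09 and -4.50 (mean -2.79 ± 2.41). The major O-mannosyltransferase genes PMT1, PMT2 and PMT4 had means of 0.16, 0.07 and -0.29, each with opposite signs on the arrays. Over the list the median was -0.29, against -0.37 for all genes, and 0.10 after each array was centred on its median. On array 1 it was 0.59 and on array 2 -1.40, against -0.38 and -0.40 for all genes valued there. Opposite signs on the arrays were found for 6 of the 9 genes.

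Genes of the M to G1 interval, in which PIR transcripts are known to peak, had a list median of -0.40. That was close to the -0.37 of all genes, and it was -0.01 after centring. The arrays differed, with list medians of -0.18 on array 1 and -0.78 on array 2. All genes valued there had -0.38 and -0.40. Where arrays agreed within 1, the list median was -1.43. Of 10 measured genes 1 was positive, NCW2, which is also on the Rlm1 list, and 3 were negative, beside 2.88% and 13.6% of all genes; so short a list cannot be told from that background. DSE1, a daughter-cell gene, had -3.37 on array 1 and -3.44 on array 2 after the turn (mean -3.40 ± 0.05), and the glucanase genes SCW11 and DSE4 had -1.94 ± 1.42 and -1.33 ± 0.99. SWI5, a transcription factor gene of this interval, had a ratio on array 2 only, -2.34 after the turn. In a whole culture, a smaller share of cells at that stage and less RNA per cell cannot be told apart.

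**Figure D4:**
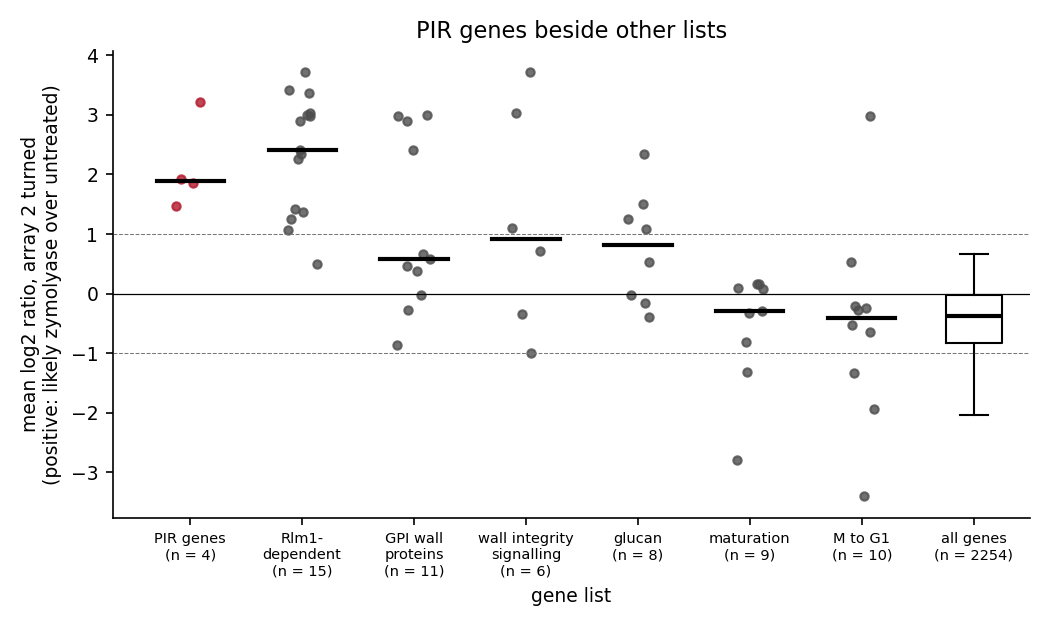
Mean log2 ratio of both arrays (array 2 turned) for each measured gene of the PIR set and of 6 other lists, with the list median as a bar, and for all 2254 genes as a box (quartiles, whiskers at percentiles 5 and 95); dashed lines mark 2-fold. The PIR genes lie between 1.48 and 3.21, inside the range of the Rlm1 list, and the medians of the maturation (-0.29) and M to G1 (-0.40) genes are near that of all genes (-0.37). By array, the maturation median was 0.59 on array 1 and -1.40 on array 2, and the M to G1 median -0.18 and -0.78.

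By the values on both arrays, the genes nearest to the centre of the 4 PIR genes (2.26 on array 1, 1.97 on array 2 after the turn) included both wall and other genes. Likeness was the Euclidean distance over the 2 arrays. CHA1, a serine and threonine deaminase gene, was nearest at 0.26 with ratios of 2.10 and 2.17, and PRM5, a known Rlm1 target, was at the same rounded distance with 2.30 and 2.22. ARI1, an aldehyde reductase gene, followed at 0.47, and HSP150 and CIS3 themselves were at 0.58 and 0.59. The other 5 of the 8 nearest were YIL108W, LAA1, UBP15, YMR304C-A and PST1, at distances of 0.58 to 0.73. PIR1 and PIR3 lay farther from the centre of their own family, at 1.01 and 1.64. With 1 pair of RNA extracts, likeness over 2 arrays describes these hybridisations only.

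The array held 2 control spots. The spot named 3XSSC had 0.12 on array 1 and -0.53 on array 2 after the turn. The spot named Arabidopsis had -1.15 and -3.27, past 2-fold on both arrays in the direction opposite to the PIR genes; the sources used here do not say which RNA it measured.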

How the data were processed

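Total RNA of both parts of 1 culture was labelled by reverse transcription and hybridised to 2 dye-swapped arrays, per the labels' protocols. The authors deposited 1 log2 ratio per gene and array; the sources used here do not give scanner, background correction, normalization, filter or numerator. Spot intensities are not part of it, which leaves the strength of each signal unknown, and the number of arrays limits the precision. Per gene, the mean and SD of array 1 and sign-turned array 2 were computed with Python 3.11.15 and pandas 2.3.3, without recentring. The code of the rule was run on simulated data, with array 2 opposite in sign by design and effects larger than those of most PIR genes. Such a run can check the code only, not the turn or the 2-fold limit on these arrays. Symbols and gene order came from a RefSeq table of assembly R64, which matched 5654 of 6207 names. No source used here gives the build of the probes.

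The members, lists and rules were chosen with earlier results of these data known. Genes named are the PIR genes, loci within 3 places of them, up to 6 passing members of each list with the largest mean (2 where none passes), SLT2, RLM1, KDX1, MSN2, MSN4, SWI5, KEX2, PMT1, PMT2, PMT4, and the 8 genes nearest to the PIR genes; any other is marked as picked once its values were known. One gene of the rule is not reported here. Alternatives were the deposited sign of array 2, centring, rescaling, the other numerator, each array alone, other fold limits, only genes with arrays within 1 of each other, and PIR5 as a 5th gene, which was added after seeing the data.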

Additional observations from a re-analysis of the deposited data

How the results depend on the processing

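The 4 PIR genes stayed positive by the 2-fold rule after centring, after rescaling and at 1.5-fold. They also did with 2-fold on each array and from each array alone (count 4 to 4). With PIR5 added all 5 were positive by the main rule on the mean, although PIR5 was not past 2-fold on array 2 (0.46). With arrays required to agree within 1, PIR3 dropped out and the other 3 were positive. With array 2 as deposited 0 were positive, because their deposited signs differ; the means were then 0.46 for PIR1, 0.51 for PIR3, -0.21 for HSP150 and -0.18 for CIS3, and the median 0.14. With every sign turned 0 were positive by construction, and the values were -1.48 (PIR1), -1.92 (HSP150), -3.21 (PIR3), -1.85 (CIS3), -1.66 (PIR5) and a median of -1.89. Centring each array gave 2.31 for HSP150, 2.24 for CIS3 and a median of 2.28. Rescaling as well gave 2.20 for PIR1, 2.90 for HSP150, 4.33 for PIR3, 2.82 for CIS3 and a median of 2.86. From 1 array alone the median was 1.82 to 2.08.

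Positive and negative genes overall (65 and 307) were 277 and 309 with array 2 as deposited, 122 and 161 after centring, 159 and 191 after rescaling, 307 and 65 with every sign turned, 109 and 515 at 1.5-fold, 38 and 104 with 2-fold on each array, and 21 and 90 where arrays agreed within 1. Each array by itself gave 271 to 297 positive and 757 to 859 negative genes among those it measured.

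Every sign turned gave list medians of -0.58 for GPI wall proteins, -2.41 for Rlm1-dependent genes, -0.91 for signalling, 0.29 for maturation, -0.81 for glucan and 0.40 for M to G1 genes. The maturation median changed sign to 0.78 with array 2 as deposited, to 0.10 after centring, to 0.59 on array 1 alone and to 0.13 where arrays agreed within 1. On array 2 alone it was -1.16 over every member valued there, and -1.40 over those valued on both arrays. The glucan median was -0.18 on array 2 alone, over every member valued there (-0.22 over those valued on both arrays), and no glucan gene had arrays within 1. The cause was not tested. No paired analysis was possible because the result comes from no test. Without intensities, no limit from weak signal could be set.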
